A study of Mus musculus with 12 samples.

Results

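Cybb and 9 markers of macrophages (Lyz2, Cd68, Ptprc, Csf1r, Adgre1, Tyrobp, C1qa, Mrc1 and Cd74) were followed through 12 RNAseq libraries of primary mouse skin fibroblasts. These 10 genes were taken by name from a table of raw read counts for 21556 genes. The question was whether the few Cybb reads in these cultures rise and fall with the macrophage markers from library to library. In a fit that treats all 12 libraries as independent, 7 of the 8 markers that could be tested followed Cybb, with slopes between 0.86 and 1.27 log2 units per log2 unit of Cybb. No marker was called once the control and TGF-β2 libraries of one replicate number were summed. With the number as a block none was called either, and 4 of the 8 slopes were negative. In that fit Cybb on its own level was not called (slope 1.17, SE 0.469), so it cannot decide the question. Without the 4 libraries of WT replicate 3 and Nox4 KO replicate 1 no marker was called. All 8 slopes then stayed positive (0.66 to 2.22), with larger standard errors. These 4 libraries, in control and with TGF-β2, were the highest of their group for Cybb and 8 of the 9 markers.

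The fibroblasts came from abdominal skin of WT mice (C57BL/6) and of Nox4 KO mice (B6.129-Nox4tm1Kkr/J, a constitutive targeted disruption of Nox4, the gene of a NADPH oxidase). They were freed from the tissue by enzymes, expanded, frozen and used at low passage. All cells were starved of serum before the experiment. TGF-β2, a cytokine that drives fibroblasts to become myofibroblasts, was given at 10 ng/ml for 24 h, and control cells received none. Each of the 4 groups (WT control, WT with TGF-β2, Nox4 KO control, Nox4 KO with TGF-β2) has 3 libraries. The methods describe no sorting step that would remove leukocytes. The age of the mice that gave these cultures, and whether the replicates of a group came from separate animals, are not given in the sources used here, so the p-values below measure the spread between these samples, which may be technical.

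Macrophages reside in the dermis, and cells freed from skin by enzymes contain them beside fibroblasts. Cybb encodes gp91phox, the catalytic membrane subunit of the phagocyte NADPH oxidase, which makes superoxide during the killing of ingested microbes. It works with Cyba (p22phox) in the membrane and with cytosolic subunits, among them those encoded by Ncf1 and Ncf4, and a Rac GTPase. In mice, expression of Cybb and of the cytosolic subunits is highest in myeloid cells, where the transcription factor PU.1, encoded by Spi1, drives many genes. The markers cover several functions of the macrophage. Csf1r is the receptor for the growth factors CSF1 and IL-34, Adgre1 encodes the surface antigen F4/80, Ptprc encodes the leukocyte phosphatase CD45, Mrc1 encodes the mannose receptor, and Tyrobp encodes the adaptor DAP12. Lyz2 encodes a secreted lysozyme and Cd68 a lysosomal membrane protein. C1qa encodes a chain of complement C1q, and Cd74 encodes the invariant chain of MHC class II.

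Each library held between 35118344 and 43796260 reads assigned to genes (median 39295667), so a library gives about the same precision for a rare transcript as any other. Nox4 itself had 211, 203 and 398 reads in WT control, 1809, 1314 and 2471 in WT with TGF-β2, 102, 108 and 207 in Nox4 KO control and 793, 782 and 1175 in Nox4 KO with TGF-β2. Reads on Nox4 were therefore present in every library labelled Nox4 KO, and the highest Nox4 KO control library lay above the lowest WT control library. A count over the whole gene does not check a disruption of a part of it. Fibroblast genes were abundant throughout, with Col1a1 at a mean of 13815 CPM (counts per 1000000 assigned reads).

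Cybb had 34, 16 and 193 reads in WT control (replicates 1, 2 and 3), 16, 8 and 87 in WT with TGF-β2, 101, 20 and 19 in Nox4 KO control and 65, 25 and 14 in Nox4 KO with TGF-β2. Replicate 3 was the highest library of both WT groups and replicate 1 the highest of both Nox4 KO groups. The groups overlapped, and the highest library exceeded the lowest 22.6-fold in CPM. The mean Cybb level was 2.06 ± 2.38 CPM in WT control, 1.21 ± 1.23 in Nox4 KO control, 0.981 ± 1.18 in WT with TGF-β2 and 0.806 ± 0.626 in Nox4 KO with TGF-β2 (SD, n = 3 each). Neighbouring groups in this order differed by less than 1 SD.

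The markers of the phagocytic and lysosomal machinery had the same high libraries. Lyz2 had 1558, 903 and 4816 reads in WT control, 1359, 750 and 3054 in WT with TGF-β2, 3512, 1264 and 702 in Nox4 KO control and 2881, 1023 and 523 in Nox4 KO with TGF-β2. Cd68 had 88, 69 and 313 reads in WT control, 96, 64 and 183 in WT with TGF-β2, 210, 94 and 61 in Nox4 KO control and 142, 58 and 44 in Nox4 KO with TGF-β2. Both genes were highest in WT replicate 3 and Nox4 KO replicate 1, as Cybb was, and their range was narrower, 9.63-fold for Lyz2 and 7.44-fold for Cd68. Reads that mapped to more than 1 place had been discarded, so the Lyz2 count leaves out reads shared with its near-identical neighbour Lyz1 and is uncertain to that extent.

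Among the surface proteins and their adaptor, Adgre1 had 118, 67 and 508 reads in WT control, 103, 35 and 283 in WT with TGF-β2, 301, 102 and 48 in Nox4 KO control and 234, 63 and 35 in Nox4 KO with TGF-β2. Tyrobp had 54, 38 and 174 reads in WT control, 48, 35 and 134 in WT with TGF-β2, 145, 46 and 35 in Nox4 KO control and 127, 40 and 27 in Nox4 KO with TGF-β2. The order of the libraries within each group was the same for Adgre1, Tyrobp and Lyz2. Ptprc had 26, 9 and 88 reads in WT control, 42, 21 and 82 in WT with TGF-β2, 50, 21 and 8 in Nox4 KO control and 94, 30 and 20 in Nox4 KO with TGF-β2. Ptprc stood apart in that 5 of its 6 TGF-β2 libraries had more reads than the control library of the same number. Mrc1 went the other way, with 45, 29 and 136 reads in WT control, 15, 8 and 48 in WT with TGF-β2, 103, 42 and 22 in Nox4 KO control and 49, 22 and 7 in Nox4 KO with TGF-β2. Csf1r had 557, 485 and 913 reads in WT control, 314, 231 and 542 in WT with TGF-β2, 807, 733 and 271 in Nox4 KO control and 536, 297 and 202 in Nox4 KO with TGF-β2. Its highest library exceeded its lowest only 4.73-fold, the smallest range among the 10 genes.

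C1qa had 160, 85 and 601 reads in WT control, 200, 110 and 473 in WT with TGF-β2, 426, 159 and 57 in Nox4 KO control and 435, 145 and 78 in Nox4 KO with TGF-β2. Its groups overlapped too, with a range of 9.51-fold. Cd74 was close to absent, with 9, 3 and 5 reads in WT control, 6, 3 and 2 in WT with TGF-β2, 3, 5 and 10 in Nox4 KO control and 9, 2 and 2 in Nox4 KO with TGF-β2. Cd74 was the exception in 3 of the 4 groups, where its highest library was another than that of the other 9 genes. It fell under the count minimum (10 reads in at least 3 libraries) and was not tested in any fit, whereas 9 of the 10 genes passed.

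Per kilobase of merged exon, the mean level over the 12 libraries was 35.9 RPKM for Lyz2, 5.93 for C1qa, 3.20 for Tyrobp, 2.50 for Csf1r, 2.4 for Cd68, 1.24 for Adgre1, 0.263 for Cybb, 0.208 for Mrc1, 0.201 for Ptprc and 0.0892 for Cd74. Cybb therefore ranked 7 of 10 on this scale, beside Mrc1 and Ptprc. The mean difference between these 3 genes was small against their ranges, which ran from 0.0441 to 0.995 RPKM for Cybb, from 0.0309 to 0.628 for Mrc1 and from 0.0430 to 0.430 for Ptprc.

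**Figure D1:**
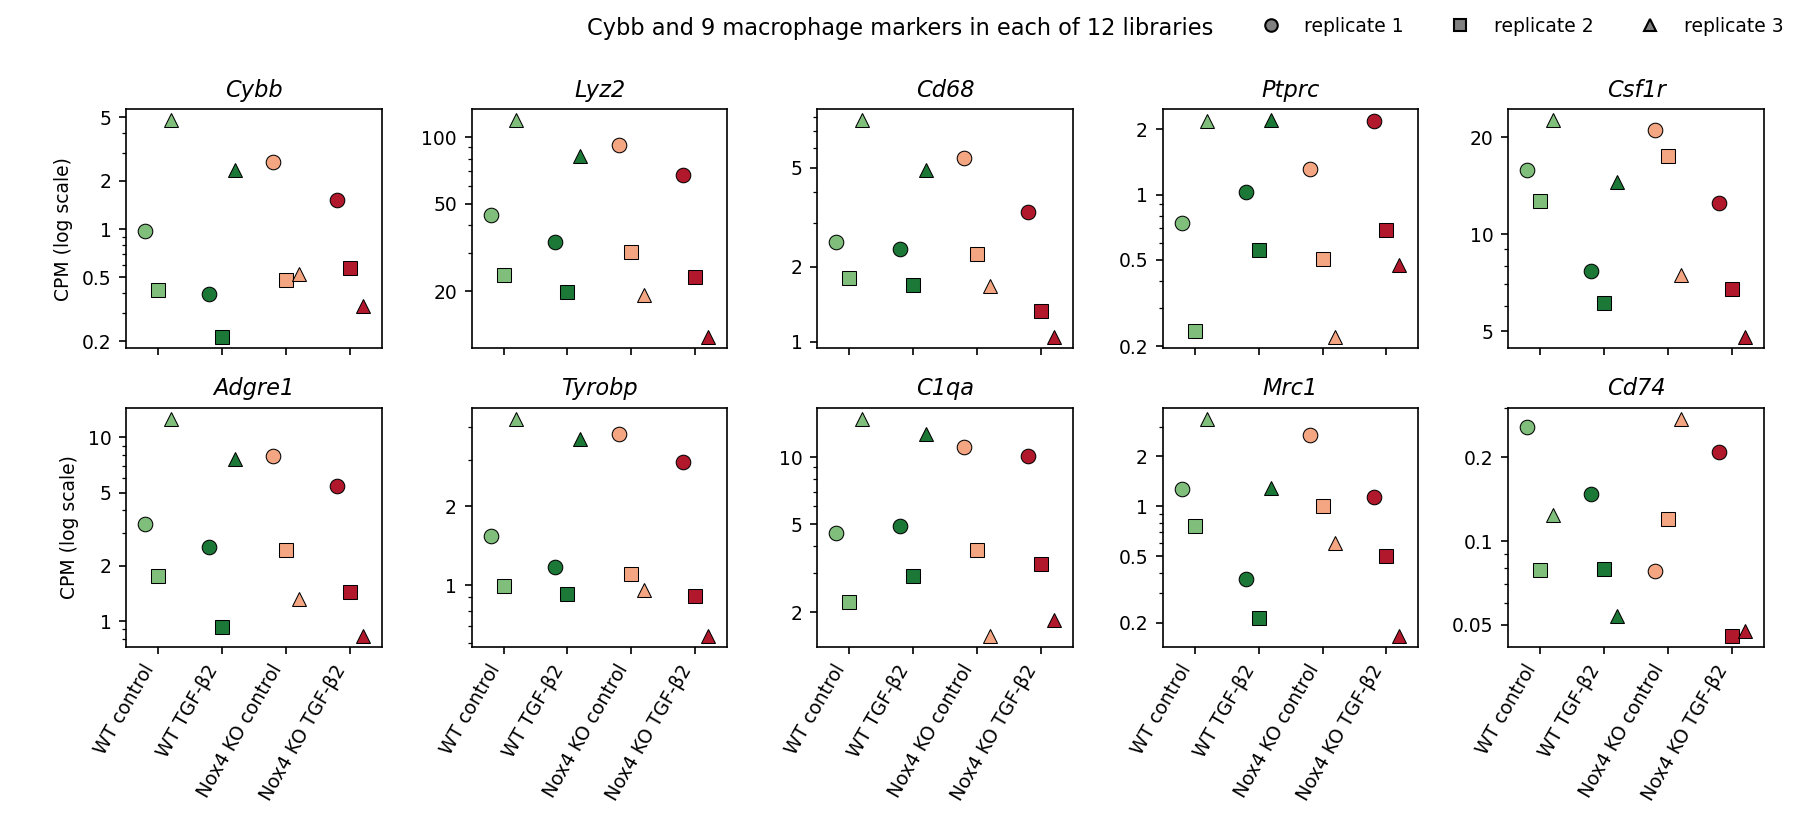
Level of Cybb and the 9 markers in CPM (log scale, with its own range in each panel) in each of the 12 libraries. The 4 groups are on the x axis, and the symbols give the replicate number. Triangles (replicate 3) are highest in both WT groups and circles (replicate 1) in both Nox4 KO groups for all genes but Cd74.

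To measure how closely the markers followed Cybb, each of 13270 other genes was fitted on the Cybb level over the 12 libraries, with the 4 groups as a factor, by edgeR's quasi-likelihood test. The Cybb level entered as log2(CPM + 0.5). A slope of 0 means no relation within groups. Because the added 0.5 compresses low values, Cybb itself had a slope of 1.47 in this fit, so a gene with exactly Cybb's fold range would lie there rather than at 1. A gene was called when its Benjamini-Hochberg adjusted p-value was under 0.05 and its slope was positive.

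Of the 8 markers tested, 7 were called, against 97 of the 13270 genes (0.731%). The slope was 1.27 for Adgre1 (SE 0.154, adjusted p = 0.00568), 1.14 for C1qa (SE 0.149, adjusted p = 0.00741) and 1.1 for Ptprc (SE 0.160, adjusted p = 0.0127). It was 1.05 for Lyz2 (SE 0.126, adjusted p = 0.00567), 1.05 for Mrc1 (SE 0.151, adjusted p = 0.0116) and 1.02 for Tyrobp (SE 0.110, adjusted p = 0.00405). Cd68 had the smallest slope among the called markers, 0.86 (SE 0.0882), and the smallest adjusted p of the 8, 0.0035. Csf1r, the growth factor receptor, had a slope of 0.49 (SE 0.132) and missed the threshold (adjusted p = 0.212). The median slope was 1.05 over the 8 markers and 0.00 over all genes tested.

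These p-values treat the 12 libraries as independent, and the control and TGF-β2 libraries of one Nox4 KO number deviated together, so they are too small. With the reads of the control and TGF-β2 library of each number summed, which leaves 6 samples, the slopes of the 8 markers were 0.49 (Csf1r) to 1.29 (Adgre1), but none of the markers and none of the 13548 genes was called by edgeR. The smallest adjusted p among them was then 0.152. With Cd74 among those tested, 8 of the 9 markers had an unadjusted p under 0.05, against 7.29% of all genes. In the 6 control libraries alone the slopes of the 8 markers were 0.34 to 1.12, with 0 calls among 13003 genes. Their adjusted p-values were 0.191 to 0.861, and 7 of 8 unadjusted p-values were under 0.05, against 6.61% of all genes. In the 6 TGF-β2 libraries alone the slopes were 0.73 to 1.52, with 0 calls among 12761 genes. The adjusted p-values were 0.49 to 0.655, and 8 of 8 unadjusted p-values were under 0.05, against 4.58% of all genes. DESeq2 was run on the 12 libraries and called 8 of the 8 markers and 194 genes.

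Without the 4 libraries of WT replicate 3 and Nox4 KO replicate 1, all 8 slopes remained positive, between 0.66 (Csf1r) and 2.22 (Ptprc), but their standard errors grew to between 0.488 and 0.879. None of the 8 was called in these 8 libraries (adjusted p = 0.999 for each), and 3 had an unadjusted p under 0.05, against 1.39% of all genes. With the replicate number within each genotype as a block, which leaves only the differences between control and TGF-β2 within a number, 4 of the 8 slopes were positive and 0 of 13270 genes were called. The slopes then ran from -0.56 (Csf1r) to 0.48. Cybb on its own level was not called in this blocked fit (slope 1.17, SE 0.469), so the fit cannot decide whether the markers follow Cybb.

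**Figure D2:**
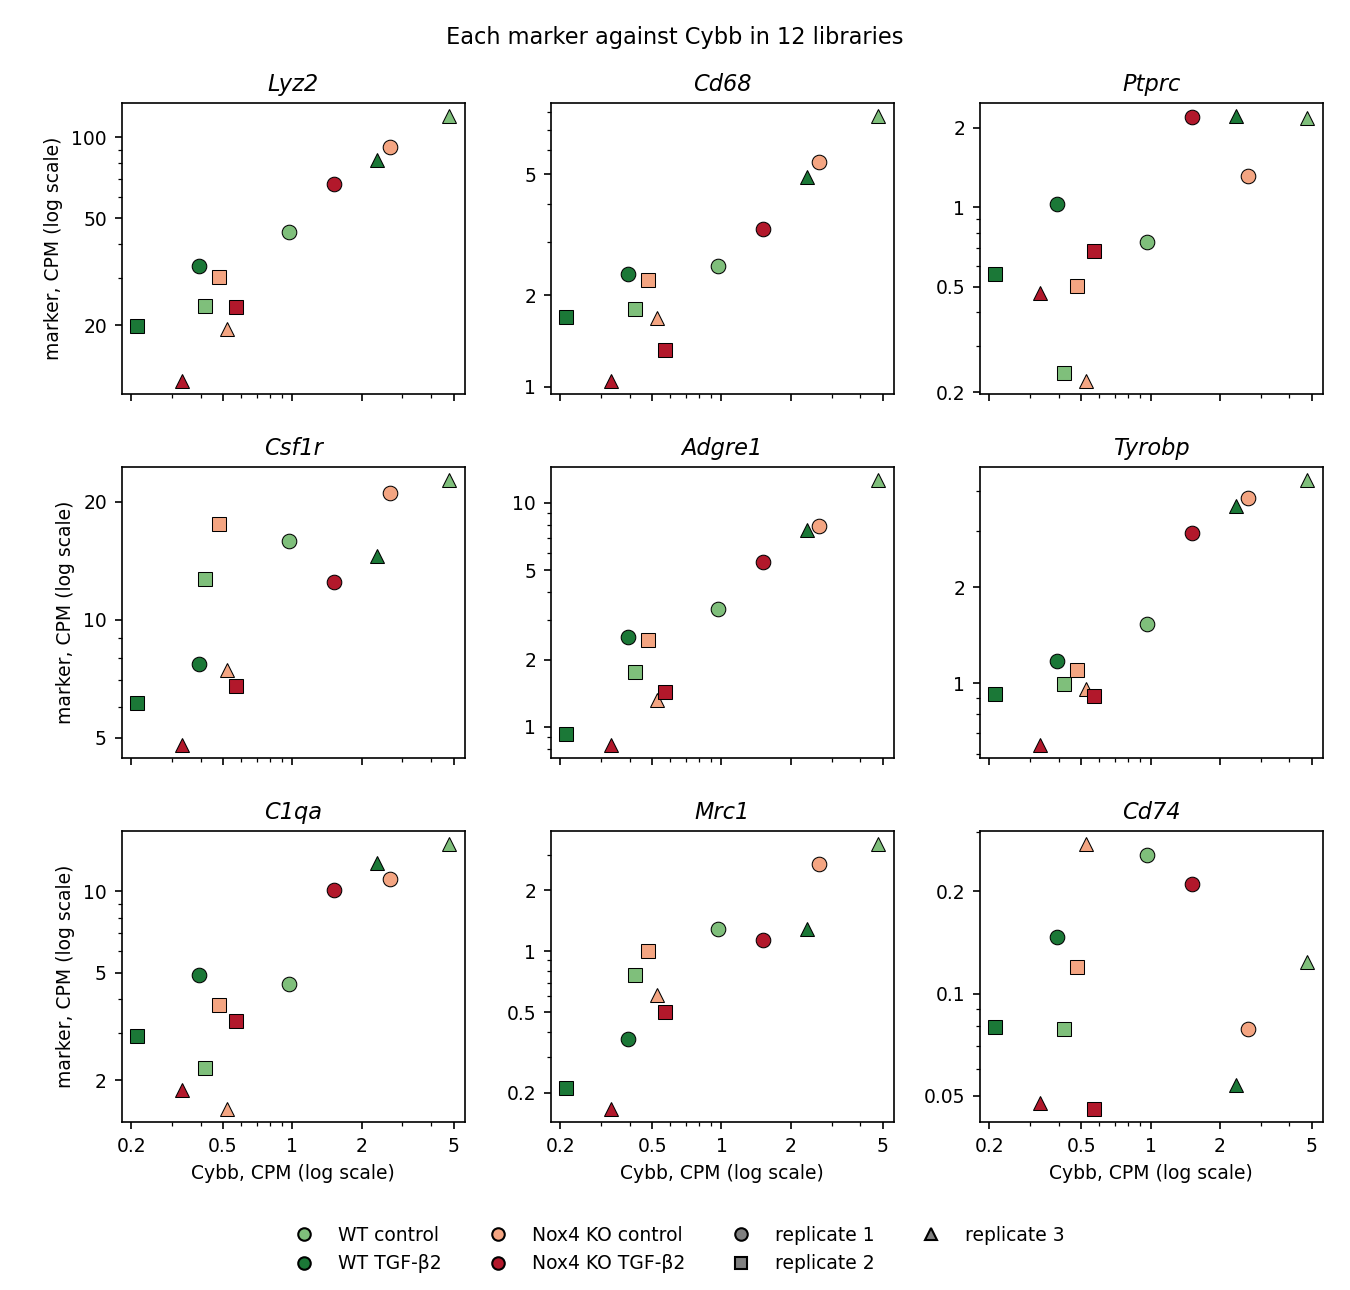
Level of each of the 9 markers against that of Cybb in 12 libraries, both in CPM on log scales. Colours give the group and symbols the replicate number. The 4 libraries with the most Cybb reads (65 to 193) lie above the other 8 for 6 of the 9 markers. The exceptions are Mrc1, where WT control replicate 1 lies above Nox4 KO with TGF-β2 replicate 1, Csf1r, where 3 control libraries lie above it, and Cd74, which shows no such order.

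Correlations within one condition (6 libraries, WT and Nox4 KO together, log2(CPM + 0.5)) were also computed, and they ranked the markers differently from the slopes. In control libraries, Pearson's r with Cybb was 0.985 for Cd68, 0.984 for Tyrobp, 0.974 for Adgre1, 0.971 for Mrc1, 0.967 for Ptprc, 0.966 for Lyz2 and 0.942 for C1qa, each with an exact permutation p of 0.0111 (two-sided). Spearman's rho was 0.829 for each of these 7 (exact permutation p = 0.0583). For Csf1r r was 0.708 (exact permutation p = 0.05) and rho 0.714 (exact permutation p = 0.136), and for Cd74 r was -0.279 (exact permutation p = 0.714) and rho 0.0857 (exact permutation p = 0.919). Without the libraries farthest from the median Cybb level, WT control replicate 3 and Nox4 KO control replicate 1, r over the other 4 was 0.939 for Tyrobp and between 0.620 and 0.803 for the other 6, and 0.272 for Csf1r.

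In TGF-β2 libraries, r was 0.973 for Mrc1 (exact permutation p = 0.00556; rho 0.943, p = 0.0167), 0.948 for Tyrobp (exact permutation p = 0.0389; rho 0.714, p = 0.136) and 0.938 for Adgre1 (exact permutation p = 0.0222). It was 0.937 for Csf1r (exact permutation p = 0.0278), 0.928 for Ptprc (exact permutation p = 0.0417), 0.917 for C1qa and 0.905 for Lyz2 (exact permutation p = 0.0361 for both). For Adgre1, Csf1r, Ptprc, C1qa and Lyz2 rho was 0.886 (exact permutation p = 0.0333). For Cd68 r was 0.861 (exact permutation p = 0.0444) with a rho of 0.714 (exact permutation p = 0.136), and for Cd74 r was 0.198 (exact permutation p = 0.678) with a rho of 0.0857 (exact permutation p = 0.919). Without WT replicate 3 and Nox4 KO replicate 1, r stayed high only for Mrc1 (0.849), and was between -0.126 (Cd68) and 0.467 (Adgre1) for the other 7 markers, so in this condition the relation rests on those libraries. These were 18 relations. Adjusted over all genes, the p-values of the 8 markers were 0.815 to 0.882 in control and 0.233 to 0.348 after TGF-β2, where 6 libraries allow no p under 0.00278. By the same test, 5.39% of 13269 genes in control and 13.4% after TGF-β2 had an unadjusted p under 0.05.

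Ranked by the correlation with Cybb over the 12 libraries after subtraction of the group means, the markers stood at 9 (Cd68), 18 (Tyrobp), 23 (Mrc1), 38 (Adgre1), 56 (Ptprc), 67 (Lyz2), 72 (C1qa) and 351 (Csf1r) among 13270 genes. Cd74 had an r of -0.09. The 12 genes outside the set with the highest r, all between 0.976 and 0.987, were Fyb, Adam8, Dock10, Mmp12, Lpxn, Cd36, Clec4d, Tlr13, Fcgr3, Ptpn6, Tlr7 and Ms4a6c. Fyb encodes an adaptor of haematopoietic cells, Mmp12 the macrophage elastase, Cd36 a scavenger receptor, Clec4d a C-type lectin receptor of myeloid cells, Tlr7 and Tlr13 endosomal receptors for RNA, Fcgr3 an Fc receptor and Ptpn6 the phosphatase SHP-1. Adam8 was the most abundant of them, with 104 to 779 reads per library, and Mmp12 reached 97 reads in the highest library and 1 in the lowest. This is an order of likeness over 12 libraries that share depth and the same high libraries, and it carries no test.

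The subunits that work with Cybb separated by where they are expressed. Of 10 tested genes of the NADPH oxidase family, only Ncf1 was called on the Cybb level (slope 1.24, SE 0.131, adjusted p = 0.00366). Ncf1 (p47phox) had 27, 21 and 144 reads in WT control, 34, 13 and 113 in WT with TGF-β2, 81, 27 and 23 in Nox4 KO control and 102, 28 and 17 in Nox4 KO with TGF-β2, with the same high libraries as Cybb. Ncf4 (slope 1.36, SE 0.269, adjusted p = 0.0605) and Rac2 (slope 1.04, SE 0.271, adjusted p = 0.188), the Rac GTPase of blood cells, missed the threshold with at most 28 and 50 reads in a library. Cyba had 2011 to 3622 reads and a slope of -0.07 (SE 0.0672, adjusted p = 0.695), and the ubiquitous Rac1 a slope of -0.07 (SE 0.0293, adjusted p = 0.451). Cybc1, which encodes a chaperone of gp91phox, had 2290 to 2972 reads and a slope of 0.02 (SE 0.0325, adjusted p = 0.846). Nox4 had a slope of 0.17 (SE 0.141, adjusted p = 0.67).

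**Figure D3:**
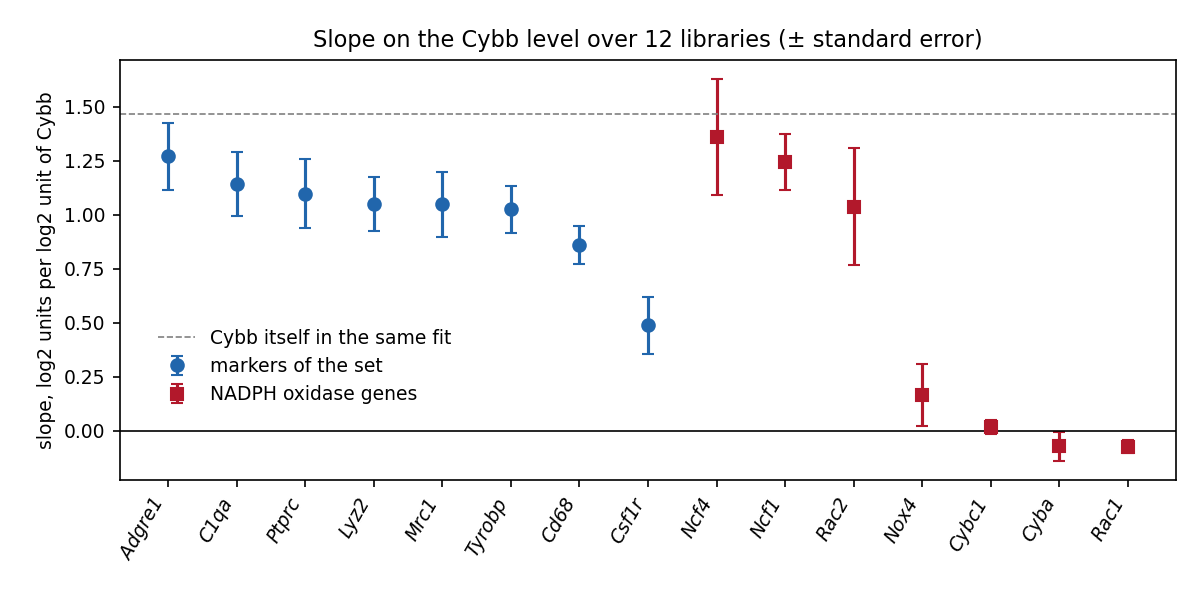
Slope on the Cybb level over 12 libraries, with its standard error, for the 8 tested markers and for 7 genes of the NADPH oxidase family. The dashed line is the slope of Cybb itself (1.47). Ncf1 and Rac2 lie in the range of the markers and Ncf4 above it, and Cybc1, Cyba and Rac1 lie near 0.

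A further list of 28 macrophage and myeloid genes gave 13 calls among its 23 tested genes, with a median slope of 1.11. Among its most abundant genes, C1qb (slope 1.20, SE 0.162, adjusted p = 0.00852), C1qc (slope 1.18, SE 0.159, adjusted p = 0.00861) and Mpeg1, which encodes the pore-forming protein perforin-2 of macrophages (slope 1.34, SE 0.155, adjusted p = 0.0055), were called. C1qb had 76 to 591 reads in WT control and 52 to 440 in Nox4 KO control.

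No gene was called by edgeR among 5 tested MHC class II genes, 6 genes of macrophage growth factors and attractants, 2 T and NK cell, 1 mast cell, 3 dendritic and Langerhans cell, 4 endothelial, 2 keratinocyte, 3 Schwann cell and melanocyte, 1 skeletal muscle and 9 fibroblast genes. In this fit only 0.731% of all 13270 genes were called, so 0 calls among 36 genes do not set these lists apart from other genes. Of these 36 genes, 6 had an unadjusted p under 0.05, 3 of them with a positive slope, where 9.94% of all genes in this fit had such a p, and DESeq2 called 1, the fibroblast gene Dcn, which encodes the proteoglycan decorin and was named after its values were seen. The B cell, neutrophil and adipocyte lists had no gene over the count minimum. The summed level of the T and NK cell list was at most 1.20 CPM in any library and that of the neutrophil list at most 0.296, with S100a9 at 0 reads in all of them, against 22.6 to 192 CPM for the 10 genes described here. Of the defining MHC class II genes, H2-Aa had 0 or 1 read in every library and H2-Ab1 8 to 62, with a slope of -0.45 (SE 0.246, adjusted p = 0.57). The median slope of the 9 fibroblast genes was 0.12.

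The promoters were examined because the members varied together. RefSeq windows (build GRCm38.p6, from 250 bases before to 50 bases after an annotated start) were held for 5 of the 10 genes, Cybb, Lyz2, Cd68, Ptprc and Mrc1. They were searched on both strands for GAGGAA, the core letters of the PU.1 site, which read TTCCTC on the other strand. The windows of Cybb, Lyz2, Cd68 and Mrc1 are shown because they span the cases found, from no match to 3. Capitals mark the matches, each sequence is read 5′ to 3′ on the strand of its gene, and it ends at the start except that of Cybb, which runs 20 bases past it.
Cybb, chrX:9469305-9469574, minus strand: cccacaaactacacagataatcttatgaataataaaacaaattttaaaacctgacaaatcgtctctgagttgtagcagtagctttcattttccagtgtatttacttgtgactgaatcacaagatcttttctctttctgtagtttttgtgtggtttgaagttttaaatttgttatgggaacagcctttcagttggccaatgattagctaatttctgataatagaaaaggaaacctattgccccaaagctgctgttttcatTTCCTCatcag
Lyz2, chr10:117282273-117282522, minus strand: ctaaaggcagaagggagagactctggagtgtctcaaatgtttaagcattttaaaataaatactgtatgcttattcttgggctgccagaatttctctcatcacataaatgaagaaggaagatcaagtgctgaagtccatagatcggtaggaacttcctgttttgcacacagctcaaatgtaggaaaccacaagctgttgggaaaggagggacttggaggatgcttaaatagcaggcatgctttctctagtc
Cd68, chr11:69666171-69666420, minus strand: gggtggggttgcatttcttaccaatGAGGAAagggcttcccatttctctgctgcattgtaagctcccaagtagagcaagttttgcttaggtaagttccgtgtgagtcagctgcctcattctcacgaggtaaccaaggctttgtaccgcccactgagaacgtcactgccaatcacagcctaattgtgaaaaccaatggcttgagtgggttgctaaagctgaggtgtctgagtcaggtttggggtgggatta
Mrc1, chr2:14229164-14229413, plus strand: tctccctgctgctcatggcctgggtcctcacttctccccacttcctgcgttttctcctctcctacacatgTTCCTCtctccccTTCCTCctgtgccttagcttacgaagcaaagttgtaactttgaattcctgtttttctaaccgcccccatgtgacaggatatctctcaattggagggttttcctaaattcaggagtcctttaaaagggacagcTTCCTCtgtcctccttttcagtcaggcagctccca

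The match of Cybb begins 9 bases after its RefSeq start. Cd68 has a match that begins at position -225 from its start and a further match at 29, past the end of the printed part. Mrc1 has 3, at positions -180, -167 and -35, and Ptprc has 1 in the first of its 2 windows, at -158. The Lyz2 window has none, which says only that these letters are not in it. The 6 letters occur in 28.3% of the 32851 windows of the table. Counted by gene, they occur in 31.3% of 27025 genes, in 30.4% of the 10425 genes tested here that have a window, in 55.1% of the 78 genes with a window among those called on the Cybb level, and in 4 of the 5 members. For comparison, TATAAA (or TTTATA) occurs in 9.02% of the tested genes and in 16.7% of those 78. The genes with a positive slope were chosen on these libraries, so the shares are a description with no test. Spi1, named here after its values were seen, had 5 to 78 reads per library and was called on the Cybb level (slope 1.11, SE 0.184, adjusted p = 0.0231).

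The next comparison was TGF-β2 against control. Neither genotype had a marker or Cybb past the threshold (adjusted p under 0.05 and a fold of at least 2) in edgeR, where 9.47% of 12905 genes in WT and 8.03% of 12962 in Nox4 KO were called. By edgeR none of the 9 tested genes had an unadjusted p under 0.05 in either genotype, where 4838 genes in WT and 5455 in Nox4 KO did. DESeq2 called none of the 9, and gave 1 of them an unadjusted p under 0.05 in WT. The CPM of control and TGF-β2 libraries overlapped for all 9 in both genotypes, whereas the share of all genes without overlap was 44.6% in WT and 46.9% in Nox4 KO. In bulk RNA, fewer macrophages and less RNA of a gene per macrophage cannot be told apart.

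The log2 fold change of Cybb was -0.99 in WT (SE 1.08, adjusted p = 0.541) and -0.47 in Nox4 KO (SE 0.856, adjusted p = 0.708). Mrc1 had -1.46 in WT (SE 0.758, adjusted p = 0.208) and -1.13 in Nox4 KO (SE 0.801, adjusted p = 0.327). Csf1r had -0.78 (SE 0.344, adjusted p = 0.147) and -0.83 (SE 0.494, adjusted p = 0.25). Within a group the highest library exceeded the lowest 4.56-fold to 11.4-fold for Cybb and 4.43-fold to 6.88-fold for Mrc1. For Csf1r it was 1.78-fold to 2.83-fold. The standard errors were large for Cybb and Mrc1 and smaller for Csf1r. Ptprc had 0.34 in WT (SE 0.775, adjusted p = 0.779) and 0.83 in Nox4 KO (SE 0.809, adjusted p = 0.473). Lyz2 had -0.38 and -0.34, Cd68 -0.35 and -0.62, Adgre1 -0.59 and -0.48, Tyrobp -0.19 and -0.26, and C1qa 0.01 and 0.00, with adjusted p-values from 0.482 to 0.999. The median log2 fold change over the 9 genes was -0.38 in WT and -0.47 in Nox4 KO, against -0.01 and -0.02 over all genes tested.

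In Nox4 KO, where the control and TGF-β2 libraries of one number deviated together over all genes, the number was also fitted as a replicate block. In this paired fit 6 of the 9 genes had an adjusted p under 0.05 at any fold, close to the 51.6% of all genes that did. Lyz2 fell by 0.37 on the log2 scale (SE 0.0651, adjusted p = 0.00615), Cd68 fell by 0.62 (SE 0.135, adjusted p = 0.013), Adgre1 fell by 0.52 (SE 0.133, adjusted p = 0.0218) and Csf1r fell by 0.82 (SE 0.156, adjusted p = 0.00797). Mrc1 fell by 1.15 (SE 0.233, adjusted p = 0.00972) and was the only gene of the 9 past a fold of 2, where 11% of all genes were. Ptprc rose by 0.83 (SE 0.228, adjusted p = 0.0273). The paired log2 fold change of Cybb was -0.37 (SE 0.273, adjusted p = 0.296), that of Tyrobp -0.27 (SE 0.168, adjusted p = 0.219) and that of C1qa 0.04 (SE 0.125, adjusted p = 0.815).

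Compared number by number over both genotypes, the TGF-β2 library had a lower CPM than the control library in 6 of 6 pairs for Lyz2, Cd68, Csf1r, Adgre1, Tyrobp and Mrc1 and in 5 of 6 for Cybb. For C1qa it was lower in 3 of 6, and for Ptprc higher in 6 of 6. No share over all genes stands beside these counts, so they are a description. In WT the numbers are not shown to pair the samples. The exception for Cybb was Nox4 KO number 2, with 0.479 CPM in control and 0.571 with TGF-β2.

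Each gene was also counted against Lyz2 in the same library, a view chosen after the values had been seen. The highest library then exceeded the lowest 1.49-fold (Tyrobp) to 3.84-fold (Ptprc) for Cybb and 7 markers, where in CPM the range of these 8 genes was 4.73-fold to 22.6-fold. Csf1r narrowed least in this count, from 4.73-fold to 3.27-fold, and the range of Cd74 widened from 6.02-fold to 21.8-fold. Mrc1 had 2.82 to 3.32 reads per 100 Lyz2 reads in the 6 control libraries and 1.07 to 2.15 in the 6 TGF-β2 libraries. Ptprc had 0.997 to 1.83 in control and 2.69 to 3.82 with TGF-β2, and C1qa had 8.12 to 12.6 and 14.2 to 15.5. The conditions thus did not overlap for these 3 of the 8 genes counted against Lyz2, with Mrc1 lower and Ptprc and C1qa higher after TGF-β2, where 1.31% of 13270 genes did not overlap. Within one genotype the exact permutation p was 0.1 for each of the 3, the smallest that 3 libraries against 3 allow. The conditions overlapped for the other 5, including Cybb. A ratio to Lyz2 also moves with Lyz2 itself. Compared number by number, the CPM of Lyz2 was lower after TGF-β2 in 6 of 6 and that of C1qa in 3 of 6.

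Cybb had 2.18, 1.77 and 4.01 reads per 100 Lyz2 reads in WT control, 1.18, 1.07 and 2.85 in WT with TGF-β2, 2.88, 1.58 and 2.71 in Nox4 KO control and 2.26, 2.44 and 2.68 in Nox4 KO with TGF-β2. Its ratio to Lyz2 varied 3.76-fold over the 12 libraries, against 22.6-fold for its CPM, and was higher in WT replicate 3 than in the other WT libraries of the same condition. Tyrobp varied least against Lyz2, between 3.47 and 5.16 reads per 100.

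**Figure D4:**
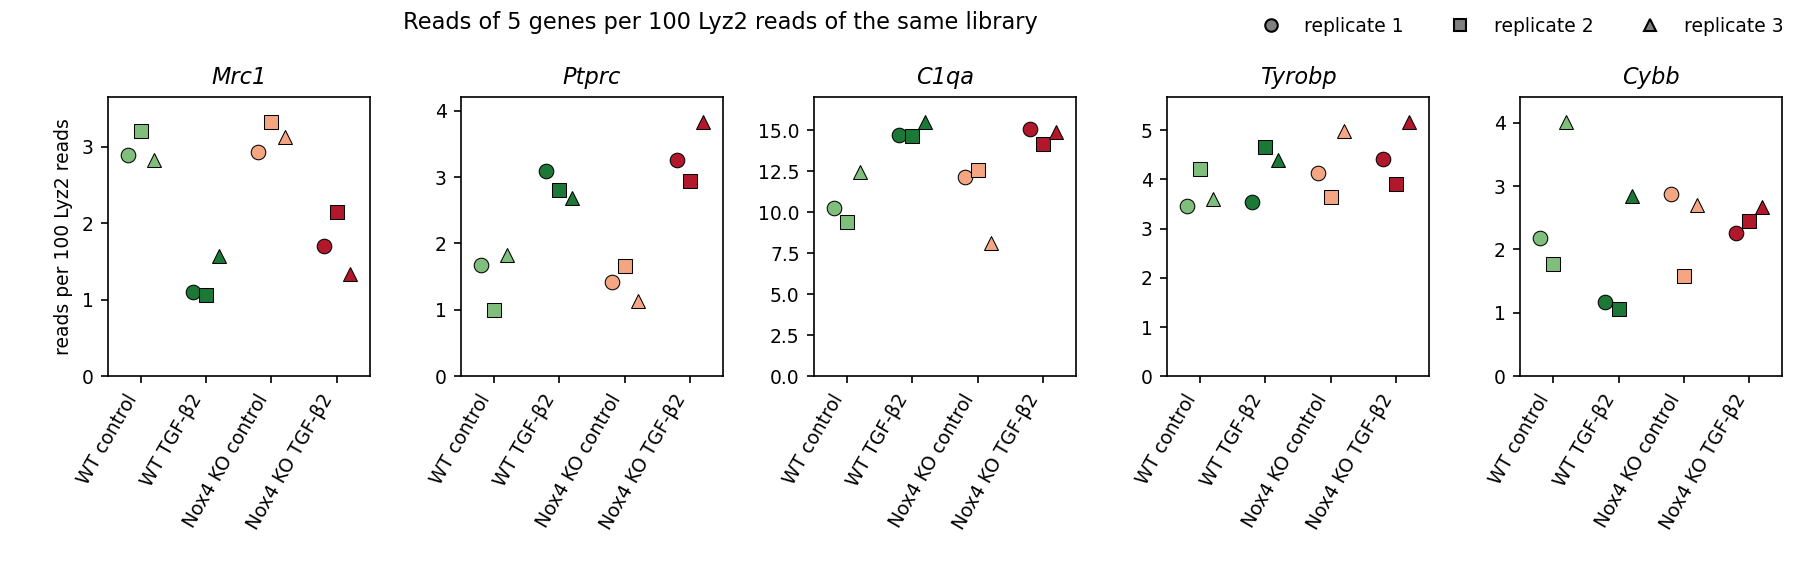
Reads of Mrc1, Ptprc, C1qa, Tyrobp and Cybb per 100 Lyz2 reads of the same library (linear axes from 0), by group, with symbols for the replicate number. Control and TGF-β2 libraries do not overlap for Mrc1, Ptprc and C1qa in either genotype, and overlap for Tyrobp and Cybb.

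Loss of Nox4 was compared last. No gene of the 9, and no gene of 13004 in control or 12762 after TGF-β2, passed the adjusted threshold (0%) in edgeR. Unadjusted p-values under 0.05 were found for 669 and 427 genes, none of them among the 9, and DESeq2 called 7 genes in each condition, again none of the 9. The CPM of the genotypes overlapped for all 9 in both conditions, where 12.9% of all genes in control and 9.76% after TGF-β2 did not overlap. The log2 fold change of Cybb in Nox4 KO against WT was -0.77 in control (SE 1.02, adjusted p = 0.927) and -0.27 after TGF-β2 (SE 0.933, adjusted p = 0.94). All 9 fold changes were below 0 in both conditions, with a median of -0.40 and -0.33, where 51.7% and 49.7% of all genes were above 0. The 9 genes share their high libraries, so their common sign is not 9 separate observations. The difference between the genotypes in the response of Cybb to TGF-β2 (interaction 0.51 on the log2 scale, SE 1.53, adjusted p = 0.975) was smaller than its standard error. No gene was called for the interaction in edgeR (0%), where 324 of 13271 genes, none of them among the 9, had an unadjusted p under 0.05. DESeq2 called 5 genes for it, again none of the 9.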

How the data were processed

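RNA from 12 libraries was sequenced as single-end reads. Per the labels and methods, CASAVA 1.8.2 was used for base calling, STAR 2.4 for alignment to GRCm38 with ambiguously placed reads dropped, and featureCounts 1.4.6 for counting over a single model per gene, made of all exons of its protein-coding isoforms. The authors deposited raw counts per gene, and whether the counting used strand is not given in the sources used here.

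The deposited table named each library by its label, and groups came from the labels. The 10 genes, the 16 gene lists and the tests were chosen with earlier results of these data known. All genes were matched by Ensembl identifier to the GENCODE M21 annotation, which gave symbols and merged exon lengths for RPKM. Totals ranged from 35118344 to 43796260 reads, and levels in CPM were divided by them.

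Genes with at least 10 reads in at least 3 libraries of a fit were tested, in place of the limit of 1 RPKM of the study, which became an alternative. edgeR 4.0.16 (R 4.3.3, quasi-likelihood test, TMM, Benjamini-Hochberg adjustment over all genes tested) was used throughout. Each pair of groups was fitted on its own 6 libraries, and the interaction and the slope on Cybb on all 12. Calls needed an adjusted p under 0.05, and a fold of at least 2 between groups or a positive slope on Cybb. Correlations were tested by exact permutation (two-sided) on log2(CPM + 0.5). Both fits were tested on simulated counts.

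The named genes are the 10 members, the 12 other genes with the highest correlation with Cybb after subtraction of group means, up to 4 genes per list by mean CPM, and any gene of the NADPH oxidase list. Some genes that this rule names are not reported here.

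Replicate numbers recur in all groups. Over all genes, same-numbered control and TGF-β2 libraries of Nox4 KO deviated together (r = 0.722, 0.633 and 0.720), so the numbers pair these samples. This pairing comes from the check alone. In WT they did not meet this mark (r = 0.0804, 0.416 and 0.526).

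Alternatives were DESeq2 1.42.0, other normalizations and filters, the replicate block, other samples or covariates, another pseudocount of 2, and leaving out each library.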

Additional observations from a re-analysis of the deposited data

How the results depend on the processing

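Under DESeq2, RLE normalization, library totals, no count filter, the 1 RPKM filter, all 12 libraries in the fit and a call at any fold, the number of the 9 genes called stayed at 0 for TGF-β2 against control in both genotypes and for Nox4 KO against WT. On the Cybb level, 5 of 6 markers were called under the 1 RPKM filter, 6 of 8 without a group term, and 7 or 8 under DESeq2, RLE, library totals, no filter and a pseudocount of 2. The number of markers called fell to 0 in the 6 control libraries, in the 6 TGF-β2 libraries, with the libraries of one number summed and without WT replicate 3 and Nox4 KO replicate 1; the latter pair of alternatives was added after seeing the data. Fewer samples and fewer degrees of freedom are part of how these 4 are built. In the fits that each lacked 1 library, 5 to 7 markers were called, 5 without Nox4 KO control replicate 1, and the number of genes called on Cybb ran from 32, without WT control replicate 3, to 106, where 97 were called on all libraries. It was 51 without WT TGF-β2 replicate 3, 44 without Nox4 KO control replicate 1 and 56 without WT control replicate 2, which moves it by over 1.5 times.

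With the replicate block Cybb on its own level was not called, so that fit cannot decide the question. The number of markers called on Cybb was then 0, and the slopes of Cd68 (-0.20), Csf1r (-0.56), Adgre1 (-0.22) and Tyrobp (-0.028) turned negative. The cause was not tested beyond the block leaving only the within-number differences. The block called 2 of the 9 genes for TGF-β2 in WT and 1 in Nox4 KO. In WT, where the numbers are not shown to pair the samples (WT control replicate 1 correlated best with TGF-β2 replicate 2, r = 0.294), the blocked log2 fold change was -1.02 for Cybb (adjusted p = 0.0175), -1.53 for Mrc1 (adjusted p = 0.00578), -0.84 for Csf1r (adjusted p = 0.00803) and -0.60 for Adgre1 (adjusted p = 0.0422). At any fold 29.8% of all genes passed in that fit, and at a fold of 2 it was 11%. For Nox4 KO against WT after TGF-β2, Cybb went from -0.27 to 0.22 with the block and Mrc1 from -0.035 to 0.10. No other call changed with the block.

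C1qa for TGF-β2 against control was near 0 and became -0.082 in WT and -0.11 in Nox4 KO with library totals, and in Nox4 KO -0.000887 without a filter and -0.030 with the 1 RPKM filter. The cause was not tested. For TGF-β2 in WT, 0 to 1 of the 9 genes were called in the fits that each lacked 1 library, the 1 being Csf1r without WT TGF-β2 replicate 3 (-1.22, adjusted p = 0.0235). Over these settings the log2 fold change in WT ran from -2.64 to 0.53 for Cybb, from -1.13 to 0.44 for Lyz2, from -0.89 to 0.51 for Cd68, from -0.31 to 1.41 for Ptprc, from -1.66 to 0.56 for Adgre1, from -1.02 to 0.62 for Tyrobp and from -0.78 to 1.05 for C1qa. In Nox4 KO it ran from -1.31 to 0.80 for Cybb, from -1.29 to 0.58 for Lyz2, from -1.30 to 0.056 for Cd68, from -0.12 to 1.71 for Ptprc, from -1.66 to 0.56 for Adgre1, from -1.21 to 0.66 for Tyrobp and from -0.98 to 1.02 for C1qa. The sign of Mrc1 and Csf1r for TGF-β2 stayed negative throughout. For Nox4 KO against WT in control, Cybb ran from -2.05 to 0.75. After TGF-β2 it ran from -1.09 to 1.4, and its interaction from -1.0 to 2.18. The correlation of Cd74 with Cybb after TGF-β2 ran from -0.31 to 0.71. Cd74, with at most 10 reads per library, cannot show a relation at this depth.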
